A study of Piriqueta cistoides subsp. caroliniana with 18 samples.

Results

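SAMDC encodes S-adenosylmethionine decarboxylase, an enzyme of polyamine synthesis. It was followed here in leaves of Piriqueta cistoides subsp. caroliniana, named Piriqueta caroliniana in the series title. The members are all probes whose only gene symbol in the probe table is SAMDC: 5 soybean clones, Gm01259, Gm01668, Gm05287, Gm05361 and Gm11215, all under the soybean Entrez gene 547981. They are 5 of 9600 probes, and SAMDC is 1 of 309 symbols with a tested clone of a single symbol. The gene was selected on the drought log ratios of these arrays, with and without the plant H2W, so its drought values below are a description and their adjusted p-values support nothing. Of the 5 clones, 4 had values on at least 14 arrays and entered the fit over all 7880 tested probes. Gm11215 had values on 13 arrays and is given by array only, apart from 1 looser fit.

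The enzyme removes the carboxyl group of S-adenosylmethionine. The product donates the aminopropyl groups that turn putrescine into spermidine and spermidine into spermine. It draws on the same S-adenosylmethionine that feeds ethylene synthesis and methylation reactions, and its translation is held back by polyamines in Arabidopsis. Polyamines are small polycations that bind nucleic acids and membranes and that accumulate in many plants under water shortage.

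The series put 18 plants, 3 from each of 6 groups, on 18 arrays of 2 colours. Hybrid, caroliniana and viridis plants were each taken through drought (4 cycles over 36 days) or kept well watered. All were cuttings raised in sand in a greenhouse near 35 °C by day and 27 °C by night with 12 h of light, and whether the 3 plants of a group were different genotypes is not given in the sources used here. Plants are named by morphotype (H, C or V), number and treatment (D for drought, W for well-watered). The arrays form 1 closed loop in which every plant was hybridised with both dyes. On 6 arrays a drought plant shared the array with a well-watered plant of its own morphotype, and the other 12 paired plants of 1 treatment across morphotypes.

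A deposited value is a log ratio of the 2 plants on an array. Its base is not stated and is 2 or e. The labels do not settle which dye is on top, so all signs are on the Cy5 over Cy3 reading, and the other reading exchanges positive and negative sides everywhere. Opposite sides of 2 clones are opposite on both readings. Ratios carry no level, so neither the amount of SAMDC RNA nor the labelled leaf tissue could be checked from levels. In leaf RNA, fewer cells of a type and less RNA per cell cannot be told apart. On the same reading, 5 of 9 clones of leaf photosynthetic symbols were called on the drought-positive side (CAB3, 4 clones, and CHLH, 1 clone) for the effect averaged over morphotypes, where 1.94% of all tested probes were called in either direction. Of 11 seed clones 0 were called, which at that share says little, and no nodule symbol was matched. The array of V3D and H2D was marked BAD by the submitters. Clones of a Glycine gene read Piriqueta RNA across species, and which Piriqueta transcripts each clone binds was not tested.

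On the 6 arrays that paired drought with well-watered plants, the clones of the same gene fell on different sides. Gm01259 read, drought minus well-watered, 0.19 (H1D and H2W), 0.26 (H2D and H1W), 0.93 (C1D and C2W), 0.42 (C2D and C1W), 0.22 (V1D and V2W) and -0.02 (V2D and V1W). As deposited it was thus on the positive side on 5 of 6 arrays, and 1 caroliniana array stood far above the rest. The values here still hold the dye offset of each clone. For Gm01259 the fitted offset of -0.16 raises the arrays with the drought plant in Cy3 (H1D, C1D and V1D). It lowers those with the drought plant in Cy5, so sizes and ranks of single arrays depend on it. Gm01668 read 0.16, 0.60, 0.13, 0.41, 0.24 and 0.10 on the same arrays in that order. This clone was on the positive side on 6 of 6 arrays, in all morphotypes and both dye orientations. How many of all probes fall on 1 side on 5 or 6 of these arrays was not counted.

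Gm05287 read 0.02, -0.21, 0.0055, -0.05, 0.03 and -0.17 on the arrays in the same order. The 3 negative values were those with the drought plant in Cy5, and the 3 values with it in Cy3 lay at or just above 0. Gm05361 read 0.06, -0.17, -0.04, -0.43, -0.07 and -0.08, negative on 5 of 6 arrays, with the array of H1D and H2W the exception. Gm11215 read -0.28 (H1D and H2W), -0.29 (C1D and C2W), 0.07 (C2D and C1W), 0.04 (V1D and V2W) and 0.63 (V2D and V1W), with no value for H2D and H1W. Its 3 positive and 2 negative values gave no common side.

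**Figure D1:**
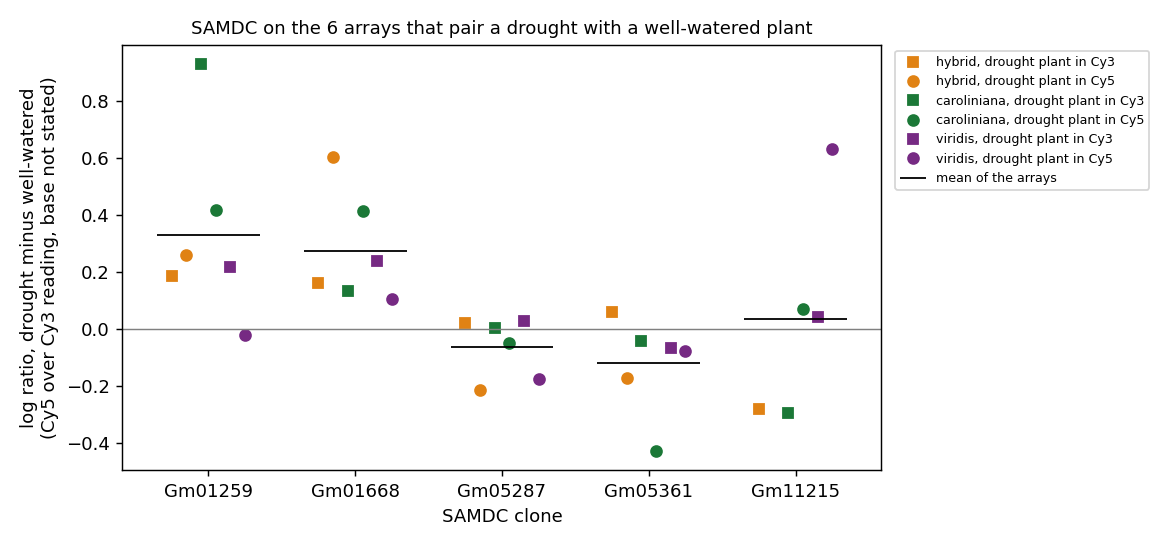
Log ratio of drought minus well-watered (Cy5 over Cy3 reading, base not stated) for the 5 SAMDC clones on the 6 arrays that pair the treatments; colour is the morphotype, squares and circles the dye of the drought plant, and the line the mean of the arrays. The values are as deposited, with the dye offset of each clone still in them. The means are 0.33 for Gm01259, 0.28 for Gm01668, -0.06 for Gm05287, -0.12 for Gm05361 and 0.03 for Gm11215, and the positive values of Gm01668 span 0.10 to 0.60.

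Log ratios of similar size, as deposited and with the dye offset of each clone still in them, stood between plants of 1 treatment. For Gm01259 the median size of the log ratio was 0.239 on the drought against well-watered arrays and 0.223 on the 11 other arrays with a value. For Gm01668 these sizes were 0.199 and 0.278, and for Gm05287 they were 0.0387 and 0.095. Gm05361 had 0.0713 and 0.0486, and Gm11215 had 0.278 and 0.255, the second over 8 arrays. Only Gm01668 and Gm05287 had the smaller size on the arrays that paired the treatments. For Gm01259 the signed median on the 11 other arrays was -0.223, the same in size as the median size. How much of these sizes is dye offset, difference between morphotypes or difference between plants was not tested. The fit included a dye offset, which was -0.16 ± 0.041 (SE) for Gm01259 and -0.09 ± 0.050 for Gm01668, against 0.04 ± 0.027 for Gm05287 and -0.0003 ± 0.029 for Gm05361.

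Values for single plants were worked out by following the loop, centred on 0 over the plants. They carry errors that add up along the loop, and the chain of Gm01259 is open because the array of C1W and H3W gave no value for it. For Gm01259 the hybrid plants had 0.21, 0.48 and 0.51 in drought (H1D, H2D, H3D) and 0.06, 0.18 and -0.17 well-watered (H1W, H2W, H3W). The lowest hybrid drought plant, H1D, lay just above the highest well-watered one, H2W. How many of all probes separate these groups likewise was not counted. The caroliniana plants had 0.40, 0.32 and -0.22 in drought and -0.25, -0.37 and -0.05 well-watered. Here C3D lay among the well-watered plants, so the groups overlap. The viridis plants had -0.26, -0.30 and 0.23 in drought and -0.44, -0.32 and 0.02 well-watered, with V3D and V3W both above the other 4 plants.

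For Gm01668 the hybrid plants had 0.23, 0.30 and 0.30 in drought and -0.40, 0.16 and -0.45 well-watered. The 3 drought plants lay close together above all 3 well-watered ones, and H2W stood apart from H1W and H3W, near the drought plants. The number of all probes that separate these hybrid groups likewise was not counted. The caroliniana plants had -0.24, 0.49 and 0.12 in drought and -0.02, -0.28 and 0.03 well-watered, and C1D lay among the well-watered plants. The viridis plants had 0.11, -0.04 and 0.14 in drought and -0.23, -0.03 and -0.18 well-watered. Only V2D, at about the level of V2W, kept the viridis groups from separating.

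For Gm05361 the hybrid plants had -0.01, -0.07 and -0.32 in drought and 0.10, -0.07 and 0.33 well-watered, the caroliniana plants -0.13, -0.07 and -0.11 against 0.36, -0.09 and 0.14, and the viridis plants 0.06, -0.13 and -0.11 against -0.05, 0.13 and 0.06. The groups overlap in every morphotype. For Gm05287 the group means ± SD were -0.01 ± 0.07 in hybrid drought and 0.09 ± 0.13 in hybrid well-watered plants, -0.06 ± 0.17 and 0.003 ± 0.08 in the caroliniana groups, and -0.04 ± 0.10 and 0.01 ± 0.14 in the viridis groups (n = 3 each). Each difference between these means was smaller than the larger SD of its pair. Over the 3 morphotypes, 6 of 9 drought plants lay above their own morphotype's well-watered mean for Gm01259, 8 of 9 for Gm01668, 2 of 9 for Gm05287 and 1 of 9 for Gm05361. Such counts were not made over all probes, and the gene was selected on its drought values, so they are descriptions.

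**Figure D2:**
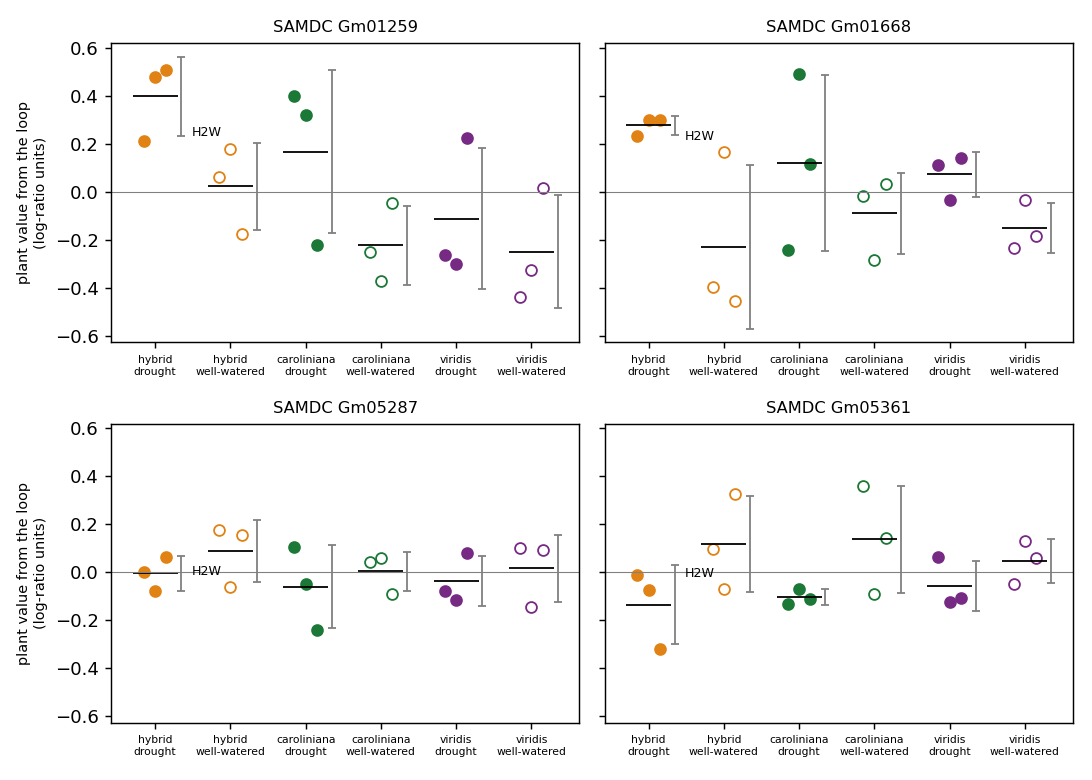
Plant values of the 4 fitted SAMDC clones from the loop (log-ratio units, Cy5 over Cy3 reading), 3 plants a group, filled for drought and open for well-watered; lines are group means and grey bars their SD. Plant H2W is marked: for Gm01668 it lies at 0.16, against -0.40 and -0.45 in the other well-watered hybrids and 0.23 to 0.30 in the hybrid drought plants. For Gm01259 the lowest hybrid drought plant (0.21) lies just above H2W (0.18).

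The fit put the drought effect averaged over the morphotypes at 0.32 ± 0.081 (SE, 95% interval 0.14 to 0.49) for Gm01259 and 0.30 ± 0.103 (0.09 to 0.52) for Gm01668. It was -0.07 ± 0.056 (-0.19 to 0.05) for Gm05287 and -0.13 ± 0.061 (-0.26 to just below 0) for Gm05361. None of the 4 clones was called at an adjusted p under 0.05 in limma with Benjamini-Hochberg adjustment over all 7880 probes, where 1.94% of probes were called. The adjusted p was 0.0616 for Gm01259, 0.217 for Gm01668, 0.74 for Gm05287 and 0.477 for Gm05361. At an unadjusted p under 0.05, 3 of the 4 passed, against 10.5% of all tested probes. The median size of the averaged effect was 0.218 over the 4 clones and 0.0577 over all tested probes. A larger size than that of Gm01259 was found in 3.29% of tested probes, than Gm01668 in 3.48%, than Gm05361 in 15.9% and than Gm05287 in 39.7%. The value of Gm01259 corresponds to 1.25-fold if the logs are base 2 and to 1.37-fold if they are base e.

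Within the hybrid the drought effect was 0.32 ± 0.120 for Gm01259, 0.50 ± 0.149 for Gm01668, -0.13 ± 0.081 for Gm05287 and -0.15 ± 0.088 for Gm05361. In caroliniana it was 0.42 ± 0.116, 0.19 ± 0.147, -0.05 ± 0.080 and -0.16 ± 0.088, and in viridis 0.21 ± 0.116, 0.23 ± 0.148, -0.04 ± 0.080 and -0.08 ± 0.088, with the clones in the same order. With all plants, each clone thus had the same sign in all 3 morphotypes. In limma, 0 of 4 clones were called in the hybrid, where 2.07% of probes were, 0 in caroliniana, against 0.799%, and 0 in viridis, against 0.711%. The lowest adjusted p was 0.124, for Gm01668 in the hybrid, and the next 0.196, for Gm01259 in caroliniana. At an unadjusted p under 0.05 these counts were 2 of 4 clones in the hybrid (13.7% of all probes), 1 of 4 in caroliniana (3.97%) and 0 of 4 in viridis (4.85%).

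With all plants the drought effect of Gm01259 was highest in caroliniana and that of Gm01668 in the hybrid. The order of Gm01259 turned with single plants left out: it had 0.47 in the hybrid and 0.46 in caroliniana without H2W, 0.48 and 0.45 without H1D, and 0.28 and 0.25 without C2W. Whether the clones differ in this order was not tested. The difference between the drought effects of caroliniana and viridis was 0.22 ± 0.145 (interval -0.09 to 0.53) for Gm01259 and -0.04 ± 0.184 (-0.43 to 0.35) for Gm01668. The drought effect of the hybrid minus that of the mid-parent, the mean of caroliniana and viridis, was 0.01 ± 0.129 (-0.27 to 0.28) for Gm01259 and 0.29 ± 0.159 (-0.05 to 0.63) for Gm01668. That contrast was called for 0 of 7880 probes in limma (0%; 431 at an unadjusted p under 0.05, with 0 of the 4 clones). A joint test of drought by morphotype gave F between 0.33 and 1.70 for the 4 clones, with an adjusted p of 0.998 each in limma. It called 0% of probes (0 of 7880, 185 at an unadjusted p under 0.05).

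Leaving out plant H2W, with both of its arrays, moved all 4 clones away from 0 in the hybrid. H2W lay on the arrays with H1D and with V3W. On the scale from the mean of H1W and H3W, set at 0, to the mean of the hybrid drought plants, set at 1, the plant value of H2W stood at 0.521 for Gm01259, 0.84 for Gm01668, 1.34 for Gm05287 and 0.816 for Gm05361. For 3 of the clones H2W was thus nearer to the drought plants than to the other well-watered hybrids, and for Gm01259 about midway.

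Without H2W the hybrid drought effect was 0.47 ± 0.139 for Gm01259 (adjusted p = 0.0385 in limma), 0.73 ± 0.139 for Gm01668 (0.00415), -0.24 ± 0.084 for Gm05287 (0.0674) and -0.26 ± 0.098 for Gm05361 (0.0839). These are 1.47, 1.47, 1.84 and 1.75 times the values with all plants. So 2 of 4 clones were called, where 14.6% of all 7879 tested probes were, against 2.07% with H2W. The averaged effect without H2W was 0.39 ± 0.085 for Gm01259 (adjusted p = 0.0177), 0.39 ± 0.089 for Gm01668 (0.0198), -0.12 ± 0.054 for Gm05287 (0.238) and -0.18 ± 0.063 for Gm05361 (0.118), again in limma. Here too 2 of 4 clones were called, with 4.73% of all probes.

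In the morphotypes that do not hold H2W the values moved less. Without it the caroliniana effects were 0.46, 0.24, -0.08 and -0.19 for Gm01259, Gm01668, Gm05287 and Gm05361, with 0 clones called in limma against 1.35% of probes. The viridis effects were 0.24, 0.21, -0.04 and -0.09, with 0 called against 1.09%. For Gm01668 the hybrid effect minus the mid-parent effect became 0.51 ± 0.137 (interval 0.21 to 0.80, adjusted p = 0.048 in limma), 1 of 4 clones called where 5.09% of probes were. Its joint test of drought by morphotype had F = 6.83 with an adjusted p of 0.149 in limma, and 0 clones were called against 1.57% of probes. The smaller well-watered group, 2 hybrid plants, stands behind each of these hybrid values.

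**Figure D3:**
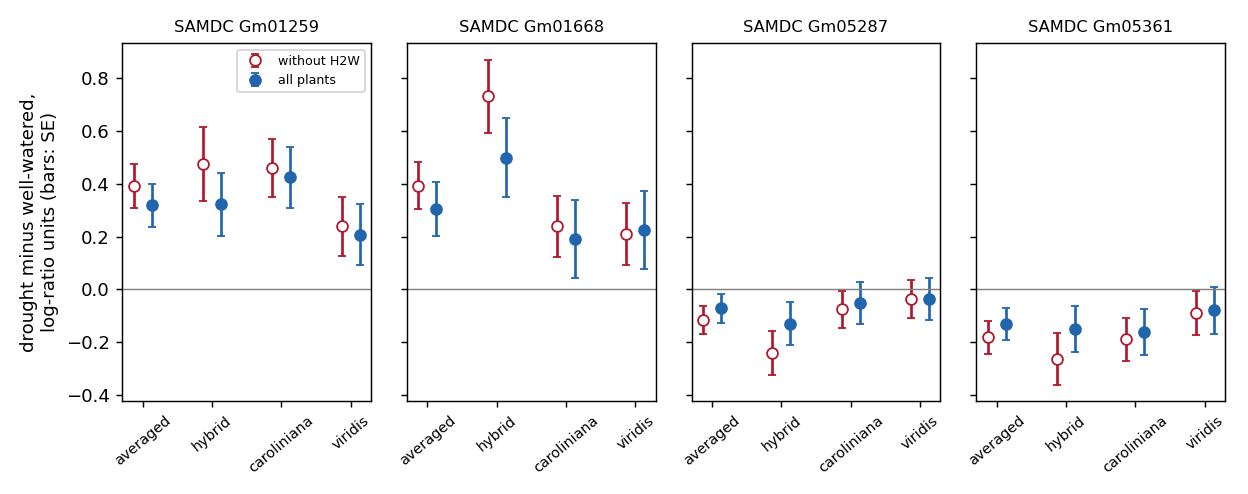
Fitted drought minus well-watered effect (log-ratio units, bars SE) of the 4 SAMDC clones, averaged and in each morphotype; open red points are without plant H2W and filled blue points with all plants. The hybrid value of Gm01668 is 0.73 without H2W and 0.50 with all plants, and no clone changes its side.

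H2W was not the only plant on which a call depended. With each of the 18 plants left out in turn, the averaged effect of Gm01259 lay between 0.22 (without C1D) and 0.39 (without H1D). It was called without C3D, C3W, H1D or H2W and not called without any of the other 14. Over all probes, 140, 137, 194 and 373 were called without C3D, C3W, H1D and H2W, against 153 with all plants. The fits tested 7880 probes (7879 without H2W). Gm01668 lay between 0.21 (without C2D) and 0.40 (without H1D), and was called only without H2W. Gm05287 lay between -0.12 and -0.02 and Gm05361 between -0.18 and -0.06, neither called in any of these fits. In the hybrid, Gm01668 lay between 0.38 (without H3W) and 0.73 (without H2W), called without H1D and without H2W. The hybrid effect was called for 207 of all probes without H1D and 1149 without H2W, against 163 with all plants. In caroliniana, Gm01668 rested on C2D: its effect was -0.02 without that plant, against 0.19 with all plants. Also in caroliniana, Gm01259 had 0.25 without C2W, against 0.42 with all plants, and Gm05361 had -0.03 without C1W, against -0.16.

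**Figure D4:**
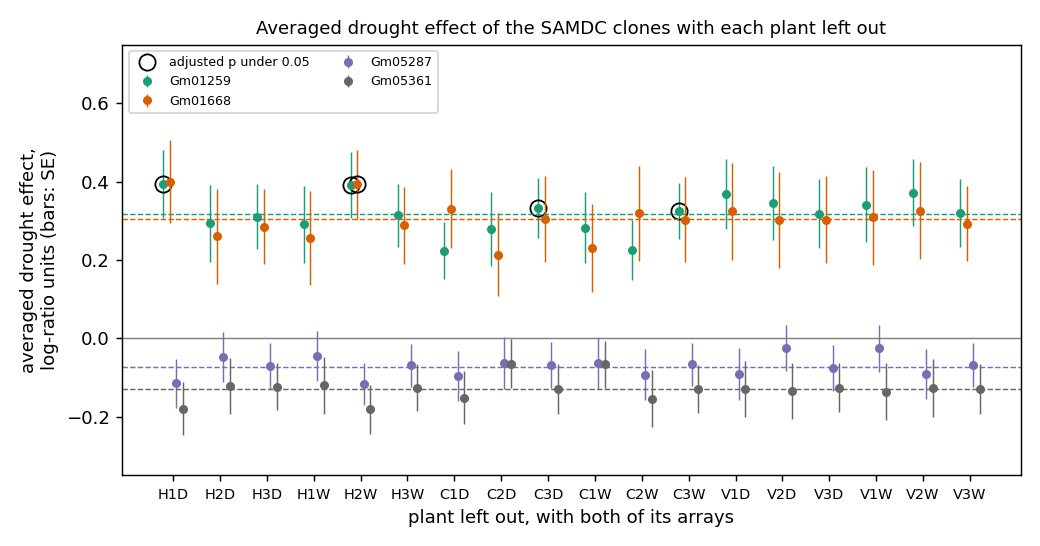
Averaged drought effect (log-ratio units, bars SE) of the 4 SAMDC clones with each plant left out in turn; dashed lines are the values with all plants and rings mark an adjusted p under 0.05 in limma. Gm01259 and Gm01668 stay between 0.21 and 0.40 and the other clones between -0.18 and -0.02.

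The clones were also compared array by array. Over all arrays, the log ratios of Gm01259 and Gm01668 correlated with Pearson's r = 0.63 (17 arrays) and those of Gm05287 and Gm05361 with r = 0.57 (18 arrays). Between these pairs the correlations were negative: -0.75 for Gm01668 with Gm05287, -0.74 for Gm01668 with Gm05361, -0.65 for Gm01259 with Gm05361 and -0.40 for Gm01259 with Gm05287. The arrays share plants and dyes, so these values are descriptions.

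The same signs stood on the arrays whose plants had the same treatment: r was 0.65 within the first pair (11 arrays), 0.48 within the second (12 arrays) and between -0.70 and -0.56 across pairs. Gm11215 had r = 0.90 with Gm05287 and -0.87 with Gm01668 over 8 of these arrays, but 0.32 with Gm05361.

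A shift shared by all probes of an array cancels in the mean of Gm01259 and Gm01668 minus the mean of Gm05287 and Gm05361. The dye offsets of the clones do not cancel and are still in the values below. Those of Gm01259 and Gm01668 lay below those of Gm05287 and Gm05361. They thus raise the difference where the drought plant is in Cy3 and lower it where that plant is in Cy5. The pairing was made from the signs of the drought values, so that the difference is positive under drought follows from it and only its sizes can be read. It was 0.13 (H1D and H2W), 0.62 (H2D and H1W), 0.55 (C1D and C2W), 0.65 (C2D and C1W), 0.25 (V1D and V2W) and 0.17 (V2D and V1W) on the 6 arrays that pair the treatments. As deposited, the array of H1D and H2W had the smallest difference, below both viridis arrays, and the other hybrid array stood with those of caroliniana. The arrays of H1D and H2W, C1D and C2W, and V1D and V2W had the drought plant in Cy3. The order with the dye offsets removed was not worked out.

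**Figure D5:**
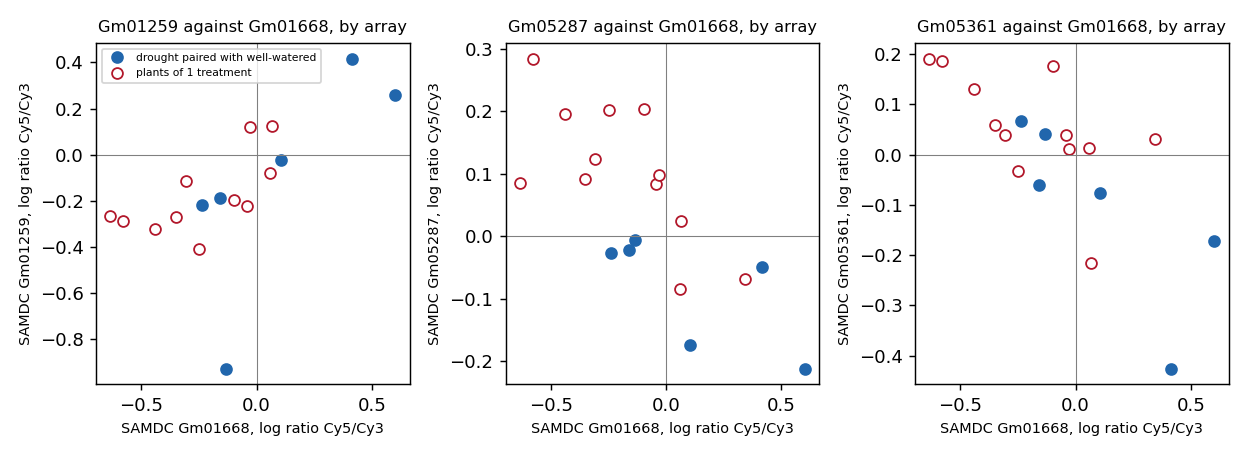
Log ratio (Cy5 over Cy3) of Gm01259, Gm05287 and Gm05361 against that of Gm01668, 1 point an array; filled points pair drought with well-watered plants and open points hold plants of 1 treatment. Gm01259 runs with Gm01668 (r = 0.63), and Gm05287 and Gm05361 run against it (r = -0.75 and -0.74).

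The clones also followed the largest pattern of the whole arrays. The first principal component of the log ratios of 5368 complete probes held 39.9% of their variance. Its correlation over arrays was 0.91 with Gm01668, 0.72 with Gm01259, -0.71 with Gm05287, -0.74 with Gm05361 and -0.61 with Gm11215. A larger size of this correlation was found for 0.913% of the complete probes in the case of Gm01668, for 16.7% to 35.7% in the case of the others. The part of this pattern in the SAMDC values was not tested, beyond the fit with a residual component as a covariate given at the end.

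Between morphotypes, over both treatments, no difference in SAMDC was called. Caroliniana minus viridis was 0.14 ± 0.088 (interval -0.05 to 0.33) for Gm01259, 0.09 ± 0.110 (-0.15 to 0.32) for Gm01668, -0.08 ± 0.059 (-0.20 to 0.05) for Gm05287 and -0.04 ± 0.065 (-0.18 to 0.10) for Gm05361. The adjusted p was 0.855 to 0.902 in limma, which called 0 of 7880 probes (0%; 296 at an unadjusted p under 0.05, none of them a SAMDC clone). With 1 plant left out, the value of Gm01259 ran from 0.0047 (without C3W) to 0.26 (without C3D), that of Gm01668 from 0.02 to 0.16, that of Gm05287 from -0.12 to -0.04 and that of Gm05361 from -0.07 to -0.02. In drought plants alone Gm01259 stood at 0.25 ± 0.112 (interval 0.01 to 0.49), and in well-watered plants at 0.03 ± 0.116, with adjusted p of 0.99 and 0.995 in limma. Gm11215, in the looser fit of probes with at least 12 arrays, had -0.37 ± 0.171 for caroliniana minus viridis (adjusted p = 0.854 in limma).

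The hybrid minus the mid-parent was 0.10 ± 0.082 (interval -0.08 to 0.27) for Gm01259, -0.03 ± 0.098 (-0.24 to 0.18) for Gm01668, 0.02 ± 0.053 (-0.10 to 0.13) for Gm05287 and -0.03 ± 0.058 (-0.15 to 0.10) for Gm05361. The adjusted p was 0.835 to 0.945 in limma, and 0 of 7880 probes were called (0%; 478 at an unadjusted p under 0.05, none of them a SAMDC clone). For Gm01668 the 2 treatments stood on different sides, 0.11 ± 0.127 in drought plants and -0.18 ± 0.125 in well-watered plants. Without H2W the second became -0.37 ± 0.110 (adjusted p = 0.156 in limma).

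In that looser fit the drought effect of Gm11215 was -0.01 ± 0.146 averaged, -0.28 ± 0.244 in the hybrid, 0.05 ± 0.198 in caroliniana and 0.18 ± 0.197 in viridis. Its errors were larger than those of every other clone. Of the 5 clones of this symbol, Gm01259 and Gm01668 had averaged effects with an interval above 0, and that of Gm05361 only just stayed below 0. The interval of Gm05287 spanned 0, and its paired arrays split 3 to 3, so its side is not settled. Its averaged effect stayed negative in all 28 alternative fits, which share the same plants. The averaged effect of Gm11215 lay near 0 with a larger error.

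Few other genes of the pathway could be followed, because the probe table gives symbols and no gene titles. Of 17 symbols of polyamine synthesis and its precursors besides SAMDC, 1 was matched: ADC, arginine decarboxylase, which starts the route from arginine to putrescine. Its clone Gm02613 had an averaged drought effect of -0.07 ± 0.168 (adjusted p = 0.937 in limma) and a hybrid effect of 0.05 ± 0.242. None of 15 symbols of S-adenosylmethionine supply was matched. ACS1, a symbol of the ethylene precursor synthase that also uses S-adenosylmethionine, had -0.23 ± 0.416 (adjusted p = 0.913).

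DAO was listed as a symbol of diamine oxidase, which breaks down putrescine. DAO, SAT1 and PDH can each stand for more than 1 enzyme in soybean, and without titles their identity is not settled, so their place in the pathway is uncertain. DAO had 2 clones, Gm00487 at -0.11 ± 0.055 and Gm01894 at 0.03 ± 0.043 (adjusted p of 0.495 and 0.862 in limma). Without H2W the hybrid effect of Gm00487 was -0.31 with an adjusted p of 0.0087 in limma, and that of Gm01894 was 0.03. That comparison called 14.6% of all 7879 tested probes and no other clone of the pathway lists, so this call says little. Among symbols listed for cysteine synthesis, which lies upstream of methionine, SAT1 had 0.0003, OAS-TL3 -0.10 and OAS-TL4 0.01, and PDH on the proline list had -0.02. With all plants, 0 of these 8 clones was called for the averaged effect, against 1.94% of all probes.

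By likeness over the 18 arrays, the named clones closest to Gm01668 among 328 complete ones were Gm05959 (LOC732655, r = 0.92), Gm03466 (LOC548073, r = 0.88) and Gm03477 (CAT5, a catalase symbol, r = 0.88). Their averaged drought effects were 1.05 ± 0.310, 0.47 ± 0.126 and 0.70 ± 0.227, all on the side of Gm01668 and with a larger size. Closest to Gm05287 were Gm11733 (BZIP117, r = 0.84) and Gm02864 (BZIP55, r = 0.83), symbols of bZIP transcription factors, and Gm10400 (LOX2, a lipoxygenase symbol, r = 0.83). Closest to Gm05361 were Gm16500 (LOX2, r = 0.87), Gm09201 (LOC547639, r = 0.86) and Gm03765 (ASP1, r = 0.82). The averaged drought effects of these 6 clones ran from -0.26 to -0.06, and none of the 9 was called in limma with all plants. All 9 were picked by likeness over arrays that include those pairing drought with well-watered plants. That they share the side of their SAMDC clone is thus largely given by the choice. Gm01259 lacked 1 array and was not ranked.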

How the data were processed

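Leaf RNA was amplified from 4 µg of total RNA, 3.5 µg of the product was reverse transcribed, and the cDNA was labelled with Cy3 and Cy5, per the labels' protocols. The authors deposited 1 log ratio per probe and array, treated here as log2. Its normalisation, base and channel order are not given in the sources used here, and signal over background is unknown. Probes with values on at least 14 of 18 arrays entered a generalised least squares fit of the 6 groups with a dye offset and plants as random effects (variance ratio 0.25), tested on simulated data of the same loop, and moderated with limma 3.58.1 in R 4.3.3 (prior df 3.95, residual df 12). Tests were two-sided, adjusted by Benjamini-Hochberg per comparison, threshold 0.05. The labels number the plants separately. The p-values rest on the scatter of the arrays around the fit, with the part of the plants set by the 1 pooled variance ratio. They do not measure the spread between plants of each probe by itself. Plant numbers were not treated as pairs: correlations of the deviations of same-numbered plants ran from -0.53 to 0.60 (MASS 7.3-60.0.1). They were positive for number 3 and negative for number 1 in every morphotype. Because plants share arrays in the loop, they cannot exclude a pairing by number. Named were the SAMDC clones, clones on lists of pathway and tissue symbols, and the 3 named clones most alike to each complete SAMDC clone. The members and lists were chosen with earlier results of these data known. Alternatives are given in the closing section. Figures used matplotlib 3.10.9 in Python 3.11.15. Array precision is limited by 3 plants a group.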

Additional observations from a re-analysis of the deposited data

How the results depend on the processing

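Of the alternatives, no setting took a SAMDC call away, since none was made with all plants. Gm01259 averaged over morphotypes became called with arrays treated as independent (0.331), arrays scaled to 1 median absolute deviation (0.362), array quality weights on arrays treated as independent (0.394), which changes both choices at once, and the first residual component as a covariate (0.322), an alternative chosen after seeing the data. With that covariate Gm01668 was called averaged (0.305) and in the hybrid (0.499), and with weights on independent arrays Gm01668 was called in the hybrid (0.517) and Gm01259 in caroliniana (0.491), with no fit that separates weights from independence. The covariate is a component of the residuals, so a smaller residual scatter over the probes is built into that fit. The 2 estimates of Gm01668 with it were those of the fit without it, and its calls are no separate evidence. The number of SAMDC clones called was 1 averaged with independent arrays, with or without weights, or scaled arrays and 2 with the covariate, 1 in caroliniana with weights on independent arrays, and 1 in the hybrid with those weights or the covariate. Over all 7880 probes, averaged calls were 156 with independent arrays, 250 with weights on them, 243 with scaled arrays and 342 with the covariate. The fit without these changes had 153. In the hybrid, 427 probes were called with those weights and 577 with the covariate, against 163. The count over all probes in caroliniana is not given here. With plants left out in turn, the number of SAMDC clones called ran from 0 to 2, both averaged and in the hybrid. Gm01259 then ran from 0.224 to 0.393 averaged and Gm01668 from 0.214 to 0.400. In the hybrid Gm01259 ran from 0.256 to 0.475 and Gm01668 from 0.378 to 0.732. Signs turned for Gm01668 in caroliniana (-0.0197 to 0.327), Gm05287 in viridis (-0.100 to 0.0488, and 0.0338 with weights on independent arrays) and, for the hybrid against the mid-parent, Gm01668 (-0.122 to 0.0929), Gm05287 (-0.0280 to 0.0509) and Gm05361 (-0.0806 to 0.0327). The cause was not tested. A replicate block for plant number, which changed no SAMDC call, gave averaged effects of 0.316 for Gm01259 and 0.306 for Gm01668. Over all probes, the number called averaged ran from 100 to 373 against 153 with all plants, highest without H2W.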
